A study of Homo sapiens with 8 samples.

Results

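The transcriptional coactivators YAP1 and WWTR1 (which encodes TAZ), their DNA-binding partners TEAD1, TEAD2, TEAD3 and TEAD4, the TEAD cofactor VGLL4, the scaffold protein gene AJUBA and the kinase genes LATS1 and LATS2 were followed in human embryonic stem cells (hESCs). These 10 genes were taken by name and matched to their Ensembl identifiers, out of 60675 genes listed for each sample. RNA sequencing was carried out on 8 samples of the H9 line (WA09), which comes from a human blastocyst, 2 samples from each of P1, P2, P3 and P4 hESCs. The labels give P1 as passage 40s, P2 as passage 100s, P3 as passage 200s and P4 as passage 300s, all grown without feeder cells in mTeSR1 medium on Matrigel, and name no treatment. The study describes P3 and P4 hESCs as culture-adapted cells with the survival trait, carrying a chromosomal gain over TPX2 and BCL2L1, and sets them against P1 and P2 hESCs. All 4 therefore are stages of 1 line, and passage, adaptation and the gain cannot be told apart.

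In the Hippo pathway, LATS kinases phosphorylate YAP and TAZ, which keeps them in the cytoplasm or marks them for degradation. Unphosphorylated YAP and TAZ enter the nucleus and bind TEAD proteins, which carry the DNA-binding domain and occupy the sequence known as the M-CAT motif. VGLL4 competes with YAP for TEAD, and AJUBA proteins bind and restrain LATS kinases, so both sides of the balance are present among these genes. Much of this control acts on protein, which was not measured here, and the question put to the data was how RNA of each gene differed between the passages.

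The genes lie on chromosomes 3, 6, 11, 12, 13, 14 and 19 of GRCh38. In GENCODE 29, YAP1 (ENSG00000137693) spans chr11:102110461-102233423 on the plus strand, AJUBA (ENSG00000129474) spans chr14:22971174-22982642 on the minus strand and LATS2 (ENSG00000150457) spans chr13:20973032-21061547 on the minus strand. TEAD4 (ENSG00000197905) spans chr12:2959330-3040673 on the plus strand, and all 10 are annotated as protein coding. Upstream sequence is shown for the coactivator gene at the centre of the pathway and for the AJUBA and LATS2 genes, the members with the lowest RNA levels in P3 hESCs relative to P1 and P2. The letters searched were CATTCC, the M-CAT core, on both strands, so that GGAATG is the same match read on the other strand. Each run is from RefSeq (GRCh38.p14), 5′ to 3′ on the strand of its gene, and capitals mark the match.
YAP1: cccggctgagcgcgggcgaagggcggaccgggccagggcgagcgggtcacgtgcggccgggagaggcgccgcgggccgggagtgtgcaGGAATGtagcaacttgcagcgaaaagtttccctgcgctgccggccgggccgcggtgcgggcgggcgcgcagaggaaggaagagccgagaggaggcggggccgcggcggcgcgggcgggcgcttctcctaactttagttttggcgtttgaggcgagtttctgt
AJUBA: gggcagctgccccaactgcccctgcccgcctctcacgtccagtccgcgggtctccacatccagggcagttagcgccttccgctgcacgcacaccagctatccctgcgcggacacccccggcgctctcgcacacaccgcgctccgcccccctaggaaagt
LATS2: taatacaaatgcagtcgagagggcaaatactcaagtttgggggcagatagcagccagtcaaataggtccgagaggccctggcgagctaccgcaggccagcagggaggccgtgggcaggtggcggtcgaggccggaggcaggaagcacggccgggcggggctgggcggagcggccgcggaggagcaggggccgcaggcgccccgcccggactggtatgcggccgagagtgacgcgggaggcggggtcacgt
The YAP1 stretch is chr11:102110197-102110446 on the plus strand and holds a match that begins 162 bases before the RefSeq start. The AJUBA stretch is chr14:22982643-22982801 and the LATS2 stretch is chr13:21061587-21061836, both on the minus strand, and these letters do not occur in them. A second AJUBA start in RefSeq, lying inside the gene, has a match 59 bases upstream. Of the 16 upstream windows of 250 bases available for 8 of the members, 2 held the letters (12.5%), beside 11.9% of 35116 windows over all genes. TEAD1 and TEAD4 had no entry in that table. A match describes the letters only.

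The 8 samples held between 26874899 and 38095600 expected counts. Counts from the 37 mitochondrially encoded genes made up over 15% of the total in 3 samples, replicate 2 of P1 (18.5%), replicate 1 of P3 (18.4%) and replicate 1 of P4 (17.2%), and 5.89 to 9.84% in the other 5. POU5F1, which sustains pluripotency, was at 1095 to 2421 TPM and SOX2 at 119 to 191 TPM. None of the 10 pluripotent cell markers tested passed an adjusted p of 0.05 between the passages. TPM is the deposited transcript level scaled by transcript length, which allows genes to be compared with each other. CPM is the count of a gene scaled to the size of each library with TMM factors, used here to compare samples for 1 gene.

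The 10 genes were detected in every sample and passed the filter on low counts. In the comparison of P3 and P4 with P1 and P2 hESCs, a call needed a log2 fold change beyond 1 in size and an adjusted p under 0.01 by the quasi-likelihood test of edgeR, with Benjamini-Hochberg adjustment over 19499 genes. AJUBA fell and was the single member called, 1 of 10, where 2.2% of all genes tested were called (429 genes). The median log2 fold change of the 10 members was 0.04, beside 0.01 over all genes tested, with 5 values above 0 and 5 below. With an adjusted p under 0.05 alone the count of members stayed at 1, with a background of 7.54%. On that threshold 3 of 10 members passed in the 4-group model (background 15.9%), all lower. By DESeq2 (background 13.9%) or with no filter (background 5.43%) 2 of 10 passed, again lower. Leaving out 1 sample gave 1 to 3 of 10 (backgrounds 3.39 to 10.9%), with 3 where the background was 10.9%.

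**Figure D1:**
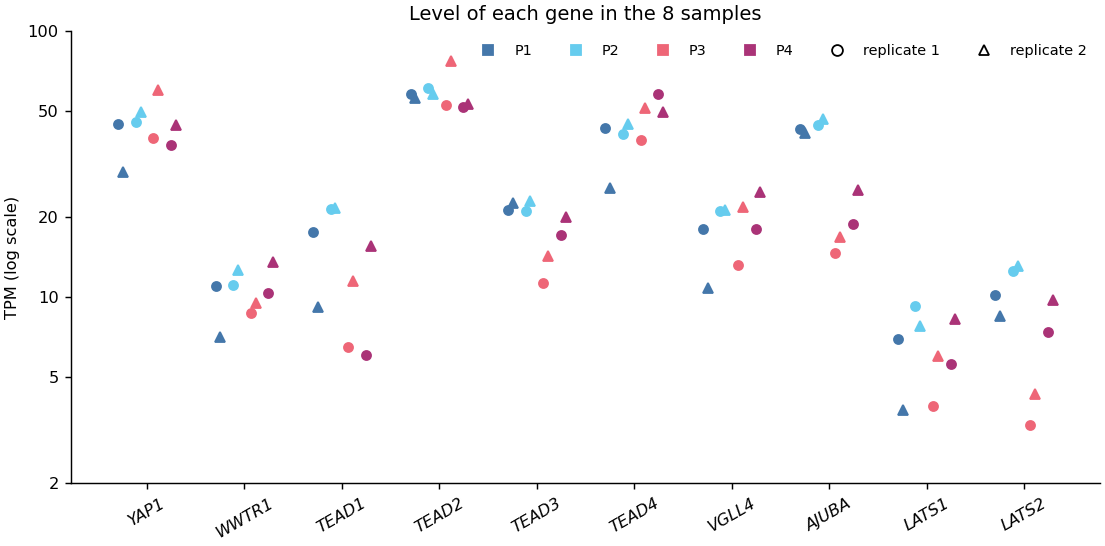
Level of each of the 10 genes in TPM on a log axis, with 1 point for each of the 8 samples, coloured by line and shaped by replicate. AJUBA lies at 41.3 to 47.0 TPM in the P1 and P2 samples and at 14.7 to 25.4 TPM in the P3 and P4 samples, while YAP1 spans 29.5 to 60.2 TPM with overlapping groups.

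YAP1 was the more abundant coactivator RNA in every sample. Its level was 44.7 and 29.5 TPM in the P1 samples, 45.6 and 49.6 TPM in P2, 39.8 and 60.2 TPM in P3 and 37.2 and 44.5 TPM in P4. The ranges of the earlier and later passages overlapped on this scale, and the replicates of P1 and of P3 differed by more than the means of P1 and P2 did from those of P3 and P4. On the CPM scale YAP1 was at 162.4 and 126.6 in P1, 125.1 and 102.9 in P2, 205.3 and 211.3 in P3 and 153.0 and 102.5 in P4. Here both P3 samples stood above all others, while P4 lay close to the range of P1 and P2. The log2 fold change of P3 and P4 against P1 and P2 was 0.38 (SE 0.23), with an adjusted p of 0.32 in edgeR. It was 0.25 without replicate 2 of P3 and 0.10 on both TPM scales in limma.

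Between single lines, the difference in YAP1 was greatest for P3 against P2, with a log2 fold change of 0.87 (SE 0.23, adjusted p = 0.030). It missed the call on both thresholds. P3 against P1 gave 0.53 (SE 0.23, adjusted p = 0.15) and P4 against P3 gave -0.70 (SE 0.23, adjusted p = 0.12). A test of any difference among the 4 lines gave an adjusted p of 0.066 for YAP1. All of these are edgeR values.

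The average transcript length that RSEM assigned to YAP1, which weights its isoforms by their estimated share, was not the same in all samples. It was 4751 and 4737 bases in P1, 3756 and 2803 bases in P2, 4793 and 4658 bases in P3 and 4496 and 3113 bases in P4. Replicate 2 of P2 and replicate 2 of P4 were thus lowest, and the longest was 1.71 times the shortest. A larger ratio was found for 11.7% of all genes tested, whose median ratio was 1.17. With offsets that took the effective length of each gene in each sample into account, an alternative chosen after these lengths were seen, the log2 fold change of YAP1 in P3 and P4 was 0.25.

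**Figure D2:**
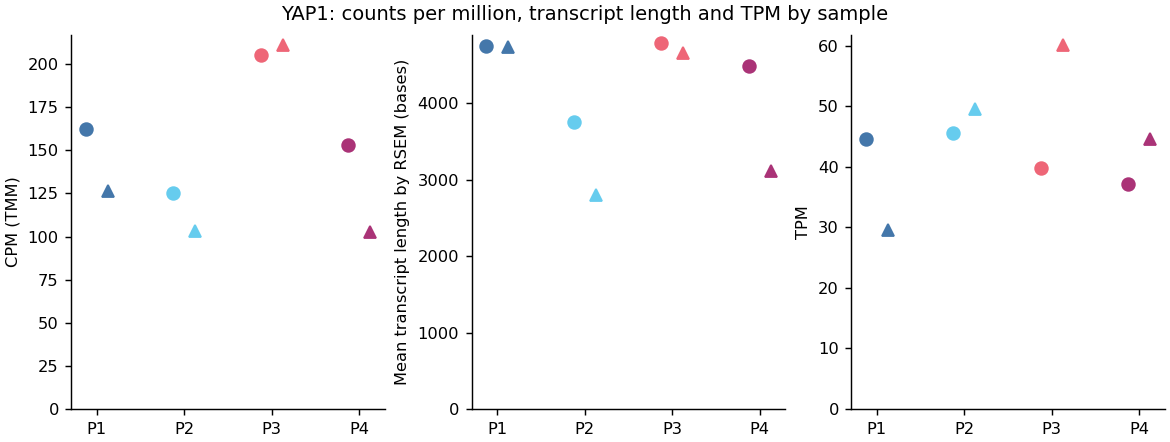
YAP1 in the 8 samples as CPM, as the average transcript length in bases assigned by RSEM and as TPM, from left to right, with a point for each sample and axes from 0. Both P3 samples lead in CPM (205.3 and 211.3), while replicate 1 of P3 is at 39.8 TPM, and the shortest lengths are 2803 and 3113 bases.

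WWTR1 encodes TAZ, the paralogue of YAP. WWTR1 was at 11.0 and 7.11 TPM in P1, 11.1 and 12.6 TPM in P2, 8.70 and 9.54 TPM in P3 and 10.4 and 13.6 TPM in P4. The groups overlapped, and the log2 fold change was 0.09 (SE 0.15, adjusted p = 0.73 in edgeR). YAP1 made up 79.7 to 80.6% of the TPM of both coactivators in the P1 and P2 samples. Its share was 82.0 and 86.3% in P3 and 78.2 and 76.7% in P4, so that P3 lay above and P4 below the earlier passages. The sum of both was 36.6 to 62.2 TPM in P1 and P2 and 47.6 to 69.8 TPM in P3 and P4.

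TEAD2 had the highest level per length of the 4 TEAD genes in 7 of 8 samples and TEAD4 in replicate 1 of P4, and TEAD1 was lowest in 7 of 8. TEAD2, the family member typical of early embryonic cells, was at 58.2 and 56.1 TPM in P1, 61.2 and 57.9 TPM in P2, 52.9 and 77.4 TPM in P3 and 52.1 and 53.5 TPM in P4. Apart from replicate 2 of P3 the TPM values differed little. In CPM both P3 samples of TEAD2 (114.1 and 117.2) stood above the others (78.6 to 101.7). The log2 fold change on counts was 0.14 (SE 0.15, adjusted p = 0.59 in edgeR).

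TEAD4, the TEAD gene required for the trophectoderm of the embryo, was at 48.9 and 34.0 CPM in P1, 44.4 and 50.01 CPM in P2, 61.7 and 54.5 CPM in P3 and 76.7 and 53.8 CPM in P4. On this scale the lowest value of the later passages exceeded the highest of the earlier ones. In TPM the groups overlapped, since replicate 1 of P3 was at 38.9 TPM while P1 and P2 reached 44.7 TPM. The log2 fold change was 0.48 (SE 0.17), and with an adjusted p of 0.11 in edgeR no call was made. Without the 3 samples rich in mitochondrial counts the log2 fold change of TEAD4 was 0.17 (SE 0.14, adjusted p = 0.56 in edgeR), an alternative added after seeing the data. TEAD3 ran in the other direction, with 42.7 to 53.5 CPM in P1 and P2 and 28.8 to 42.2 CPM in P3 and P4. Its log2 fold change was -0.38 (SE 0.15, adjusted p = 0.15 in edgeR), and P3 against P1 alone gave -0.66 (SE 0.20, adjusted p = 0.047 in edgeR).

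TEAD1 had the most scattered values of the family. It was at 97.7 and 64.3 CPM in P1, 106.4 and 94.6 CPM in P2, 52.3 and 58.8 CPM in P3 and 40.9 and 73.7 CPM in P4. The groups overlapped through replicate 2 of P1 and replicate 2 of P4. The log2 fold change was -0.69 (SE 0.20, adjusted p = 0.064 in edgeR). The adjusted p of TEAD1 was 0.022 by DESeq2, 0.034 in edgeR with no filter and 0.035 in the edgeR 4-group model, so that it lay on either side of 0.05 by the fit. Within P1, P3 and P4, the sample with more mitochondrial counts had the lower TEAD1 level, by log2 differences of -0.60, -0.17 and -0.85. VGLL4 was likewise lower in that sample in each line (-0.38, -0.24 and -0.14), while TEAD3 (0.26, 0.22 and 0.05) and AJUBA were higher. The other members changed sign between the lines. How often genes in general kept the same sign was not counted. With the mitochondrial share as a covariate, added after seeing the data, the log2 fold change of TEAD1 was -0.59 (SE 0.14, adjusted p = 0.028 in edgeR), and without the 3 samples rich in these counts it was -0.60 (SE 0.16, adjusted p = 0.13 in edgeR).

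As a share of the TPM of the 4 TEAD genes, TEAD4 made up 22.7 to 30.9% in P1 and P2 and 33.3 to 43.6% in P3 and P4, with means of 28.1 and 37.0%. The groups did not overlap. The TEAD3 share was 14.5 to 19.9% in P1 and P2 and 9.22 to 14.5% in P3 and P4, and the TEAD1 share was 8.11 to 14.8% and 4.55 to 11.2%. TEAD2 stayed at 39.3 to 49.4% and 38.6 to 50.04%. The summed TEAD level was 114 to 147 TPM in P1 and P2 and 110 to 155 TPM in P3 and P4, which overlapped. These shares are descriptions and were given no test.

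**Figure D3:**
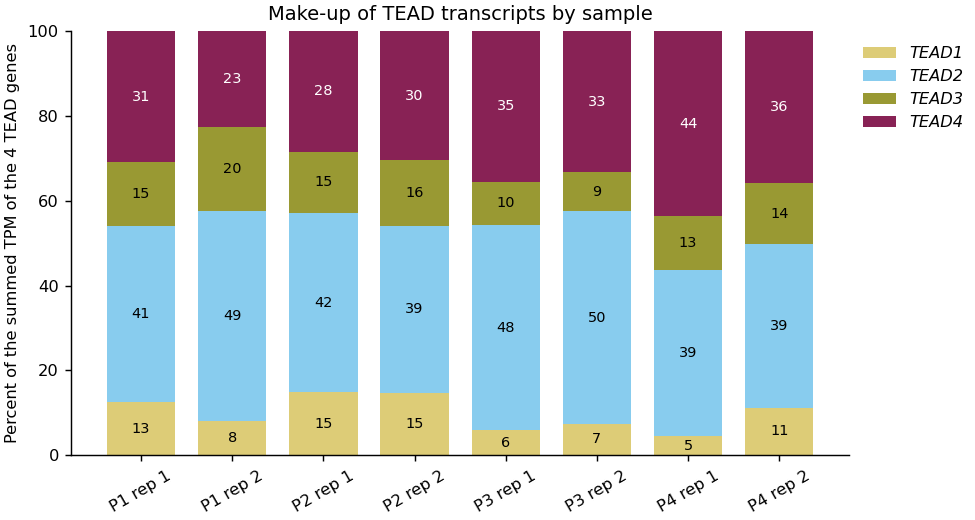
Share of TEAD1, TEAD2, TEAD3 and TEAD4 in the summed TPM of the 4 genes, in percent, as a stacked bar for each of the 8 samples starting at 0. The TEAD4 part is 22.7 to 30.9% in the P1 and P2 samples and 33.3 to 43.6% in the P3 and P4 samples.

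VGLL4 encodes a cofactor that binds TEAD in place of YAP. It was at 39.9 and 30.7 CPM in P1, 43.9 and 42.7 CPM in P2, 40.4 and 47.6 CPM in P3 and 47.2 and 51.9 CPM in P4. The groups overlapped, with a log2 fold change of 0.25 (SE 0.15, adjusted p = 0.32 in edgeR), which was 0.15 without replicate 2 of P1. VGLL4 shares exonic positions with ATG7 on the other strand, which had 352 to 670 counts, and whether counting used strand is not given in the sources used here. Of its relatives, VGLL1 was listed at 0 in all 8 samples and VGLL2 reached no more than 0.19 TPM. VGLL3 was called lower in P3 and P4 hESCs, with a log2 fold change of -1.73 (SE 0.26, adjusted p = 0.0025 in edgeR) and means of 6.33 TPM in P1 and P2 and 1.57 TPM in P3 and P4.

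AJUBA showed the clearest difference of the 10 genes. It was at 99.9 and 100.4 CPM in P1, 98.0 and 104.9 CPM in P2, 43.0 and 34.9 CPM in P3 and 55.4 and 46.5 CPM in P4. Means by line were 100.2 ± 0.38, 101.5 ± 4.88, 38.9 ± 5.74 and 51.0 ± 6.33 CPM (SD, n = 2 each). The P1 and P2 samples were nearly level, and every P3 and P4 sample lay below them on both scales. The log2 fold change of P3 and P4 against P1 and P2 was -1.17 (SE 0.15, adjusted p = 0.0011 in edgeR). Leaving out any 1 sample gave log2 fold changes between -1.28 and -1.06 and kept the call. Within P1, P3 and P4 the sample richer in mitochondrial counts differed from its replicate in AJUBA by 0.01, 0.30 and 0.25 on the log2 scale, upward in each line. Without the 3 samples rich in mitochondrial counts, an alternative added after seeing the data, it was -1.32 with an adjusted p of 0.018, which is past 0.05 but not 0.01. In bulk RNA, fewer cells expressing a gene and less RNA per cell cannot be told apart.

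By line, AJUBA was called in P3 against P1 (log2 fold change -1.36, SE 0.19, adjusted p = 0.0011) and in P3 against P2 (-1.38, SE 0.19, adjusted p = 0.0010). P4 gave -0.97 against P1 (SE 0.19, adjusted p = 0.011) and -0.99 against P2 (SE 0.19, adjusted p = 0.011), just short of both thresholds. With an adjusted p under 0.05 alone, AJUBA was the 1 member to pass in P4 against P1 (background 5.94%) and in P4 against P2 (background 4.44%). These pairs share samples and are not separate evidence. The call in P3 against P1 was lost without replicate 2 of P1 (log2 fold change -1.36, adjusted p = 0.014) and that in P3 against P2 without replicate 2 of P2 (-1.33, adjusted p = 0.015). All are edgeR values. AJUBA overlaps AL132780.3 on the same strand, which was assigned 0 to 142 counts where AJUBA had at least 1250.

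The kinase genes differed from each other. LATS2 was at 43.1 and 42.7 CPM in P1, 51.5 and 55.6 CPM in P2, 19.7 and 18.1 CPM in P3 and 37.5 and 41.1 CPM in P4. Means by line were 42.9 ± 0.28, 53.6 ± 2.88, 18.9 ± 1.19 and 39.3 ± 2.54 CPM (SD, n = 2 each). The P3 samples stood far below the rest, and P4 lay just under P1. The CPM groups of the earlier and later passages did not overlap. In TPM they did, since replicate 2 of P4 was at 9.74 TPM and replicate 2 of P1 at 8.52 TPM. Over both later lines the log2 fold change was -0.73 (SE 0.26, adjusted p = 0.11 in edgeR), and no call was made. In that fit the gap between P3 and P4 counts as error. In the edgeR 4-group model, where it does not, the same comparison of LATS2 gave -0.82 (SE 0.13, adjusted p = 0.0016), past 0.01 but short of the minimum fold. LATS2 was called in P3 against P1 (log2 fold change -1.18, SE 0.19, adjusted p = 0.0023) and in P3 against P2 (-1.50, SE 0.19, adjusted p = 0.00055). P4 against P1 gave -0.13 (SE 0.19, adjusted p = 0.74), and P4 against P3 gave 1.05 (SE 0.19, adjusted p = 0.011), which missed the call. LATS2 was the 1 member to pass an adjusted p of 0.05 alone in P4 against P3 (background 3.31%). These are edgeR values, while DESeq2 called LATS2 in P4 against P3 (adjusted p = 3.5e-05). The LATS2 call in P3 against P1 did not outlast the loss of any 1 of these 4 samples, with adjusted p between 0.012 and 0.023, while the log2 fold change stayed between -1.24 and -1.11.

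LATS1 was at 28.8 and 23.2 CPM in P1, 33.5 and 25.9 CPM in P2, 24.5 and 26.6 CPM in P3 and 30.4 and 28.7 CPM in P4. The groups overlapped fully, with a log2 fold change of -0.02 (SE 0.15, adjusted p = 0.96 in edgeR). LATS2 made up 57.6 to 69.3% of the TPM of both kinases in P1 and P2 and 41.8 to 56.9% in P3 and P4, without overlap. The sum of both was 12.3 to 21.8 TPM in P1 and P2 and 7.20 to 18.0 TPM in P3 and P4.

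**Figure D4:**
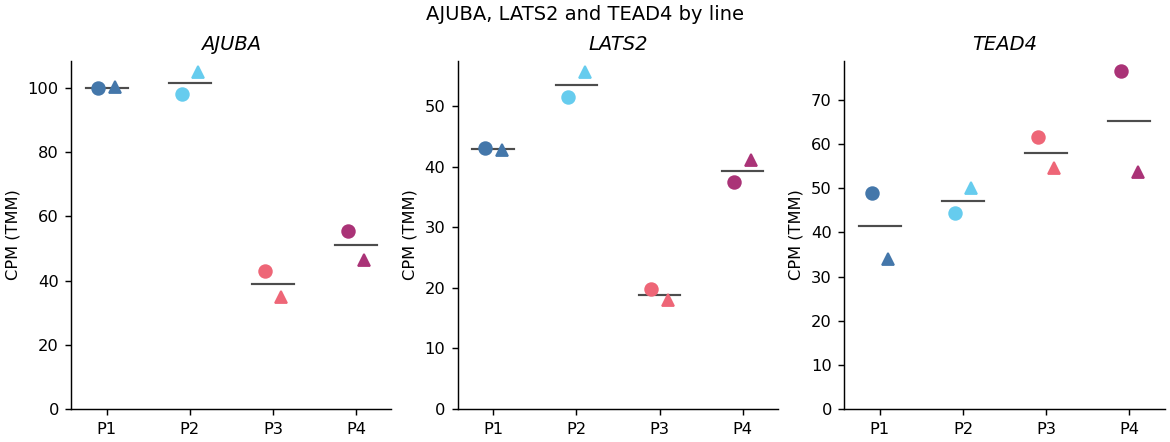
AJUBA, LATS2 and TEAD4 in CPM in each of the 8 samples by line, with points for samples, axes from 0 and a line at the mean of 2. AJUBA is low in both P3 and P4 (34.9 to 55.4 CPM), LATS2 is low in P3 (18.1 and 19.7 CPM), and TEAD4 is higher in all P3 and P4 samples (53.8 to 76.7 CPM) than in P1 and P2.

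Between pairs of lines, 2 of 10 members were called in P3 against P1 (background 3.93%) and 2 of 10 in P3 against P2 (background 3.42%), AJUBA and LATS2 in each. With an adjusted p under 0.05 alone, 3 of 10 passed in P3 against P1 (background 12.5%), with TEAD3 added, and 3 of 10 in P3 against P2 (background 11.7%), with YAP1 added. No member was called in P4 against P1 (background 2.11%), P4 against P2 (1.75%) or P4 against P3 (0.815%), and none in P2 against P1, where edgeR called 0 genes and 0.00513% passed an adjusted p of 0.05. At an unadjusted p under 0.05, 1782 genes passed in P2 against P1, and DESeq2 called 40. In the edgeR quasi-likelihood test of any difference among the 4 lines with an adjusted p under 0.01, 2 of 10 members passed, AJUBA (adjusted p = 9.2e-04) and LATS2 (adjusted p = 0.0018), with a background of 4.79%. The CPM values of the earlier and later passages did not overlap for TEAD3, TEAD4, AJUBA and LATS2, 4 of 10, beside 17.6% of all genes tested. In TPM those of TEAD4 and LATS2 overlapped.

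**Figure D5:**
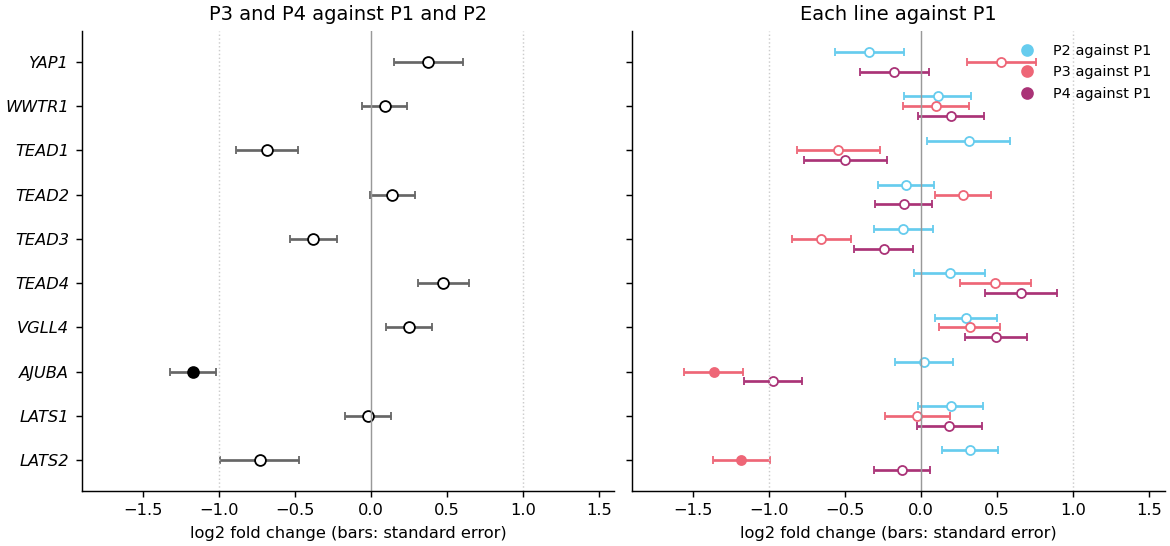
Log2 fold change of each of the 10 genes in P3 and P4 against P1 and P2 (left) and in P2, P3 and P4 each against P1 (right), with bars of 1 SE from edgeR, filled points for calls and dotted lines at -1 and 1. On the left AJUBA at -1.17 is the single call, TEAD1 and LATS2 are at -0.69 and -0.73, and TEAD4 is highest at 0.48, while on the right AJUBA (-1.36) and LATS2 (-1.18) are called in P3.

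Genes around these members were read from lists of the pathway, none of which was tested as a set. Of 16 kinases and adaptors tested that act on or beside LATS1 and LATS2, none passed an adjusted p of 0.05 (median log2 fold change 0.14), with values from -0.17 for STK4, which encodes the kinase MST1, to 0.56 for TNIK. Of 15 genes of the STRIPAK phosphatase complex, which acts on MST kinases, none passed (median 0.11, from -0.58 for STRIP2 to 0.43 for PDCD10). Nor did any of 11 casein kinase, F-box and 14-3-3 genes, which handle phosphorylated YAP and TAZ (median 0.28, from -0.49 for CSNK1E to 0.97 for SFN). Of 19 junctional and scaffold genes, 2 were lower at an adjusted p under 0.05 and none higher, where 7.54% of all genes tested passed in either direction. These were AMOTL2, which binds YAP at junctions, at a log2 fold change of -1.35 (SE 0.29, adjusted p = 0.018), and PTPN14, a phosphatase that binds YAP, at -0.89 (SE 0.16, adjusted p = 0.0077), both short of a call in edgeR.

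The 5 LIM-domain relatives of AJUBA all had log2 fold changes under 0, from -0.64 for WTIP to -0.21 for ZYX, with a median of -0.27. Of all 19499 genes tested, 9652 were under 0. LIMD1, which like AJUBA binds LATS kinases, was the only 1 of the 5 to pass an adjusted p of 0.05 (log2 fold change -0.55, SE 0.13, adjusted p = 0.029 in edgeR). Over all genes tested 7.54% passed in either direction. Of the 24 genes tested from a list of YAP and TAZ targets, 4 were called lower and none higher, where 222 of all 19499 genes tested were called lower. At an adjusted p under 0.05 alone, 9 of the 24 were lower and none higher, where 788 of all genes were lower. The list had a median of -0.82 and 21 values under 0, beside a median of 0.01 and 9652 values under 0 among all genes tested. Beside AJUBA the calls were NT5E, which makes adenosine at the cell surface (log2 fold change -2.17, SE 0.29), FJX1 (-1.84, SE 0.27) and the receptor kinase gene AXL (-1.25, SE 0.13), with adjusted p of 0.0014, 0.0026 and 3.1e-04 in edgeR. NT5E was low throughout, at 0.1 to 1.26 TPM, with FJX1 at 1.4 to 7.7 TPM and AXL at 6.86 to 26.05 TPM. AJUBA and LATS2 are themselves on that list, as are AMOTL1, AMOTL2, FRMD6 and PTPN14 of the scaffold list, so the lists are not separate counts. CCN2, which encodes CTGF, is a YAP target also measured by the study and was named here after its values were seen. It had a log2 fold change of -1.26 (SE 0.25, adjusted p = 0.011 in edgeR). Its means were 222 TPM in P1 and P2 and 88.8 TPM in P3 and P4. P4 against P1 alone gave a log2 fold change of -1.33. By RT-qPCR the study reported the opposite direction, with more CTGF RNA in P4 than in P1 hESCs. The reason for this difference was not tested. In P4 hESCs the study further reported unaltered YAP1 mRNA, more YAP1 protein with less of it phosphorylated, and more nuclear YAP1 and TEAD4 protein. A reporter of YAP1 activity was also higher in P4. From these RNA sequencing data it found Hippo gene sets enriched in P1 and P2 relative to P3 and P4. Protein and reporter activity were not measured here. TPX2 and BCL2L1, the genes the study ties to YAP1, had log2 fold changes of 2.04 (SE 0.19) and 1.26 (SE 0.16) with adjusted p of 1.3e-04 and 0.0012 in edgeR.

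None of the markers of other cell types was called between the passages, and 2 passed an adjusted p of 0.05. These were DCX of the neuroectoderm list (log2 fold change 0.75, adjusted p = 0.034 in edgeR) and POSTN of the fibroblast list (1.34, adjusted p = 0.040 in edgeR), both higher in P3 and P4 and at no more than 3.15 and 1.58 TPM. The summed trophoblast markers were at 18.7 to 28.1 TPM in P1 and P2 and 11.2 to 16.7 TPM in P3 and P4, without overlap. This sum was given no test. KRT7 was its largest part, with means of 12.2 and 7.4 TPM, and 7 of the 11 markers stayed under 1 TPM in all samples. None of the 6 tested of 11 was called, and of the defining genes CGA reached no more than 0.04 TPM and VGLL1 and ELF5 were listed at 0. Of those detected, KRT7 was at 3.77 to 14.3 TPM, TFAP2C at 2.45 to 6.50 TPM, GATA2 at 0.05 to 4.69 TPM and TFAP2A at 0.09 to 2.56 TPM. The 6 tested did not share a pattern over P3 and P4. In P3 against P1 and P4 against P3, the log2 fold changes were -3.29 and 3.45 for GATA2 and -4.27 and 2.36 for TFAP2A. They were -0.82 and 1.01 for TFAP2C and -0.12 and -0.96 for KRT7. GATA3 and CDX2, at no more than 0.86 and 0.73 TPM, had -0.01 and 1.22, and 1.17 and 0.38. Summed mesendoderm markers were at 2.21 to 6.03 and 1.62 to 4.35 TPM, with none of 7 tested called. Of the 7, 6 had log2 fold changes under 0, from -3.81 for HAND1 to -0.35 for MIXL1, where 9652 of all 19499 genes tested were under 0. These 6 reached no more than 1.85 TPM. FOXA2 was higher in P3 and P4, at 2.15, and reached 3.63 TPM. Summed neuroectoderm markers, mostly TUBB3, were at 118 to 162 and 120 to 161 TPM, and the defining gene SOX1 reached no more than 0.14 TPM. Fibroblast and mesenchyme markers summed to 458 to 623 and 492 to 777 TPM. Most of this came from THY1 (232 to 648 TPM), COL1A1 (51.3 to 150 TPM) and COL1A2 (32.2 to 73.5 TPM). COL3A1 reached no more than 0.02 TPM and DCN 0.18 TPM. The part of the trophoblast markers in the values of TEAD4, AJUBA and LATS2 was not tested.

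The genes whose pattern over the 8 samples was most like that of YAP1, by Pearson's r of log2 CPM among 17491 genes, were SLC25A24 (r = 0.994), MCUB (0.989) and CUL3 (0.988). For TEAD4 they were REXO2 (0.977), ARF6 (0.961) and NPY (0.960), and for AJUBA they were VEPH1 (0.997), SOX15 (0.988) and NUAK1 (0.988). These are the highest of many values over 8 samples that share lines and libraries, and are given as a description. NPY was at only 0.03 to 1.41 CPM, so its lowest values rest on very few counts.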

How the data were processed

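RNA was sequenced in 8 samples, 2 for each of 4 passages of H9 hESCs, and the labels do not say that replicates were separate cultures, so p-values measure only the spread between these samples. Per the submitters' notes, the authors used FastQC, Trim Galore, STAR 2.7.3a and RSEM 1.3.3 with GRCh38. The deposited expected counts, which RSEM estimates per gene, and the deposited TPM values were used. Annotation release and the strand setting of counting are not given in the sources used here.

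Rounded expected counts were fitted together for all 19499 genes left by filterByExpr with edgeR 4.0.16 (R 4.3.3, quasi-likelihood test, TMM). Calls used the study's thresholds (log2 fold change beyond 1 in size, adjusted p under 0.01). Standard errors are the log2 fold change over the square root of F. The comparison of P3 and P4 with P1 and P2 used groups of 4 samples, and pairs of lines used a model with 4 groups of 2. DESeq2 1.42.0 and limma 3.58.1 on log2(TPM + 1) and log2(TPM + 0.1) were alternatives. Log2 CPM for correlations used a prior count of 2. The fits were tested on simulated data.

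The members and gene lists were chosen with earlier results of these data known. Named genes were all 10 members, and of a pathway list those called or otherwise at either extreme of the log2 fold change, 1 of which is not reported here. For likeness, the 3 genes with the highest r to YAP1, TEAD4 and AJUBA were named. PTPN14, LIMD1, DCX and POSTN were named for an adjusted p under 0.05, and CCN2 and the trophoblast and mesendoderm markers with values, after their values were seen. Positions are from GENCODE 29 and upstream sequences from RefSeq GRCh38.p14.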

Additional observations from a re-analysis of the deposited data

Results flagged for a closer look

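TEAD2 in the 4 P1 and P2 samples had 1 value apart from the others, 101.7 CPM in replicate 2 of P1 against 89.1 to 89.7 CPM. The gap was 0.953 of the range, above Dixon's 95% critical value for 4 samples. Of 20 groups examined this was the single one to pass, and chance gives about 1.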

How the results depend on the processing

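Of 438 alternative values, 396 kept their direction and their side of the threshold or moved little. For P3 and P4 against P1 and P2, the number of all genes called moved from 429 to 1470 (adjusted p under 0.05 alone), 907 (DESeq2), 738 (no filter), 919 (4-group model), 242 and 282 (log2(TPM + 1) and log2(TPM + 0.1) in limma, where the median of all genes moved to -0.09 and -0.14) and 227 to 456 on leaving out 1 replicate. Without the 3 samples rich in mitochondrial counts it was 61 and 0 members were called. A replicate block gave 343 genes and 1 member. Same-numbered samples did not deviate together (r from -0.0901 to 0.138). With a single replicate difference per line, this cannot exclude that they were handled together, and the labels do not say. On leaving out 1 replicate, members called ranged from 0 to 2 for P3 against P1 (backgrounds 0.75 to 4.15%) and 1 to 2 for P3 against P2 (0.898 to 4.14%). Among the 4 lines they ranged from 1 to 2 (2.11 to 4.57%). With no filter 4 passed among the 4 lines, where the background rose from 4.79 to 10.4%. At an adjusted p of 0.05 alone, 3 members passed in P3 against P1 and 3 in P3 against P2, and 1 member in P4 against P1, P4 against P2 and P4 against P3. In P4 against P3, 1 was called by DESeq2 (background 3.08%) and 1 with no filter (background 2.64%).

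Leaving out replicate 2 of P1 gave AJUBA an adjusted p of 0.014 in P3 against P1, and leaving out replicate 2 of P2 gave it 0.015 in P3 against P2 (edgeR). Of the log2 fold changes of members in P3 and P4, the signs that turned were those of WWTR1 at -0.081 without the 3 samples, of TEAD2 at -0.0051 and -0.0054 with the 2 TPM pseudocounts, and of LATS1 at 0.0032 with no filter, 0.017 with the mitochondrial share as a covariate and -0.095 to 0.086 on leaving out 1 replicate. Of the shares, which have no test, the YAP1 difference of 0.57 percentage points ranged from -1.27 to 1.95 and the TEAD2 difference of 0.88 from -1.14 to 2.97 on leaving out 1 replicate, so neither has a settled direction. Small log2 fold changes moved by over 1.5 times in the same way, with ranges of 0.25 to 0.56 for YAP1, 0.03 to 0.17 for WWTR1, 0.07 to 0.25 for TEAD2 and 0.15 to 0.32 for VGLL4. The difference in the TEAD1 share was -5.26 percentage points, and -10.7 without scaling by length. The cause was not tested in any of these. Settings with the mitochondrial share, without the 3 samples, with effective lengths, and all those for the 4 lines were added after seeing the data. The 2 samples a line limit the precision of every value.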
